A study of Arabidopsis thaliana with 9 samples.

Results

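The genes described here are those of Arabidopsis thaliana that stood above leaf in the gynoecium and below leaf in stamens. A gene was taken when its mean over the 3 gynoecium libraries was at least 2 times its leaf mean, its stamen mean was at most 0.5 of its leaf mean, its gynoecium mean was at least 10 CPM and its leaf mean at least 1 CPM, where CPM is the read count of the gene scaled to the column total of the library. Of 32833 loci in the deposited count table, 24400 had a count in some library and 169 met the rule, 168 of them protein-coding and 1 a microRNA gene. The rule used the levels in all 3 tissues, so the levels and ratios of the members are given as a description and carry no test. The study sequenced RNA of the accession Col-0 from 3 libraries of gynoecium (labelled female), 3 of stamens (labelled male) and 3 of leaf, all with the same stage label, flower bud differentiation, and with leaves and immature buds as the material. No genotype, treatment or age separated the groups, and separate plants are not named for the libraries of a tissue, so the spread given below may be technical.

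The gynoecium is the organ of fused carpels that encloses the ovules, and stamens carry the anthers in which pollen forms. Both are thought of as modified leaves, and they share regulators of polarity, epidermis and vasculature with the leaf blade. Plant organs at the bud stage still hold dividing cells, which load newly made DNA with replication-type histones, and they lay down a cuticle of cutin and wax on their outer cell layer. In bulk tissue, fewer cells of a type and less RNA per cell cannot be told apart.

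Total counts ran from 16042169 to 18756860 per library, so that 3 counts correspond to 0.160 to 0.187 CPM. The tissue labels were checked on marker genes. The 5 gynoecium markers STK, CRC, SHP1, INO and STY1 summed to 325 to 337 CPM in gynoecium, 1.01 to 1.90 CPM in stamens and 0 in leaf. The 5 pollen markers summed to 7.36 to 8.58 CPM in gynoecium, 5930 to 6171 CPM in stamens and 0 to 0.0581 CPM in leaf, and 5 leaf mesophyll markers to 687 to 756 CPM in gynoecium, 570 to 614 CPM in stamens and 9894 to 10487 CPM in leaf. The 5 stamen and tapetum markers summed to 24.3 to 26.4 CPM in gynoecium, 1611 to 1668 CPM in stamens and 0 in leaf. Their gynoecium sum came mostly from AP3 and PI. The 3 petal and sepal markers, with the member PTL among them, summed to 22.1 to 25.2 CPM in gynoecium. Of these RBE had 3.51 CPM in gynoecium and no count in stamens or leaf. A part of other floral tissue in the gynoecium libraries was not tested. The part of the pollen transcripts in the low stamen levels of the members was not tested.

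The rule reads levels on the column totals of the table, and libraries scaled by other means give other ratios. With TMM factors the median log2 ratio over all 20827 genes tested was 0.55 lower for gynoecium over leaf and 0.23 lower for stamens over leaf than with column totals. With edgeR's quasi-likelihood test on TMM-scaled counts and a Benjamini-Hochberg adjusted p under 0.05, 42.6% of genes tested were higher in gynoecium than in leaf and 37.9% were lower in stamens than in leaf, and 5.50% were both. By the same test, 10419 of the 20827 genes tested were higher in stamens than in leaf and 8323 were lower in gynoecium than in leaf. Of the calls between gynoecium and leaf 51.6% were higher with TMM factors and 67.3% with library totals. Beside these shares, all 169 members were called higher in gynoecium and 168 lower in stamens, which the rule itself fixes for the most part. The median edgeR log2 difference of the members was 1.02 for gynoecium over leaf and -1.75 for stamens over leaf, beside 0.00 and 0.23 over all genes tested. On that scale the members ran from 0.36 to 4.53 for gynoecium over leaf and from -9.87 to -1.23 for stamens over leaf. No member changed direction with TMM factors, which the rule fixes, since its 2-fold limits exceed the shift in scale. Calls in lists and families below are on TMM factors, and ratios are on column totals. In all 169 members each gynoecium library lay above each leaf library and each stamen library below each leaf library. The rule's limits on the group means make this likely, and the same count was not made over all genes tested.

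A count of members also depends on the scaling. With TMM factors 115 genes met the rule, 84 of them members, and with DESeq2 size factors 113 did, again with 84 members among them. With upper quartile factors 139 genes met it, 91 of them members. The 84 members that met the rule under every scaling are counted or named beside each group of genes by role below. All 76 members between 2 and 3 times leaf in gynoecium were among the 85 that failed some scaling. On column totals, 146 members met the rule whichever library was left out.

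**Figure D1:**
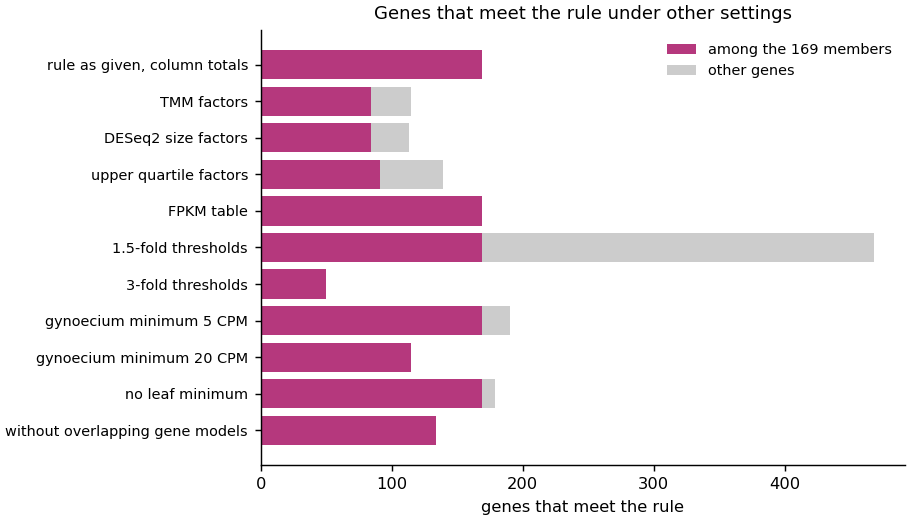
Number of genes that meet the rule as given and under 10 other settings (horizontal axis), split into the 169 members (coloured) and other genes (grey). The bars for TMM factors and DESeq2 size factors hold 84 members each, and the bar for 3-fold thresholds holds 50.

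The pattern was uncommon among genes that stood above leaf in the gynoecium. Of 4983 genes that met the rule's conditions on gynoecium and leaf, 169 or 3.39% had a stamen mean at or below 0.5 of leaf, 2341 lay between 0.5 and 2 times leaf and 2473 were at 2 times leaf or more. The members ran from 2.01 to 36.4 times the leaf mean in gynoecium, with a median of 3.17, and from 0 to 0.5 of the leaf mean in stamens, with a median of 0.351. Of the 169, 40 reached 5 times leaf in gynoecium and 12 reached 10 times. In stamens, 19 were at or below 0.1 of leaf. The opposite pattern, at least 2 times leaf in stamens and at most 0.5 of leaf in gynoecium with the same minimums, held for 224 genes.

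**Figure D2:**
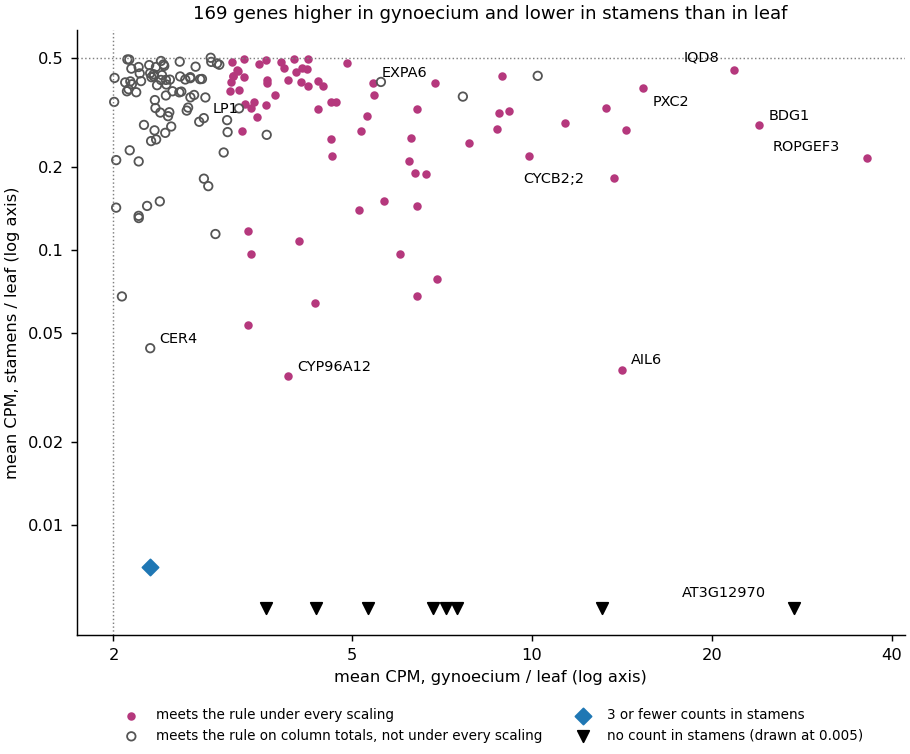
Ratio of mean CPM in gynoecium to leaf (horizontal, log axis) against the ratio in stamens to leaf (vertical, log axis) for each of the 169 members, with dotted lines at the rule's thresholds of 2 and 0.5. Filled circles meet the rule under every scaling, open circles do not, the diamond is MSRB9 with 3 stamen counts, and triangles are the 8 members with no stamen count, drawn at 0.005. All circles below 3 times leaf in gynoecium are open.

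At the edges of the rule, PAP16 lay just inside at 2.01 times leaf in gynoecium and BARD1 just outside at 1.996, with AGL8, the fruit identity gene also called FRUITFULL, at 1.96. On the stamen side, PMR5 was just inside, with 5.29 CPM in stamens and 10.6 CPM in leaf, and MES17 just outside at 0.501 of leaf. AT4G24320 had a gynoecium mean of 10.04 CPM and GPAT2 9.80 CPM. CYCB2;2 had a leaf mean of 1.03 CPM and MEE3 0.846 CPM. AIL5, at 49.2 CPM in gynoecium with no stamen count, was kept out by its leaf mean of 0.418 CPM.

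The groups by role, here and below, were picked among the members after the levels were seen. The size of such a group alone carries no comparison with all genes tested. Genes of the cuticle and its wax gave 7 members. BDG1 (AT1G64670), an epidermal hydrolase needed for an intact cuticle, had 170.2, 174 and 177 CPM in gynoecium libraries, 1.73, 2.42 and 2.01 CPM in stamen libraries and 7.23, 7.27 and 7.21 CPM in leaf libraries. It stood at 24.0 times leaf in gynoecium and 0.284 of leaf in stamens, and the libraries of each tissue lay close together. CER4 (AT4G33790), the reductase that makes the primary alcohols of wax, had 73.8, 69.7 and 71.7 CPM in gynoecium libraries, 1.40, 1.35 and 1.36 CPM in stamen libraries and 34.6, 29.9 and 28.9 CPM in leaf libraries. Its stamen libraries lay at 0.0440 of leaf, while gynoecium was only 2.30 times leaf. The lipid transfer protein gene LP1 (AT2G38540) had the highest level per length of all members, 1101 FPKM in gynoecium, 117 FPKM in stamens and 389 FPKM in leaf, in the authors' FPKM table. The other 4 were GPAT8 (AT4G00400), an acyltransferase of cutin synthesis, KCS20 (AT5G43760) and KCS16 (AT4G34250), both of the enzyme family that elongates very-long-chain fatty acids, and the cytochrome P450 gene CYP96A12 (AT4G39510). GPAT8 and KCS20 stood at 2.49 and 2.36 times leaf in gynoecium and at 0.416 and 0.463 of leaf in stamens. KCS16 had no count in stamens. Of the 7, BDG1, KCS16 and CYP96A12 met the rule under every scaling. The pattern was not shared by the whole class: of 19 KCS genes tested 2 were members, and KCS6, the main elongase of wax synthesis, had means of 382 CPM in gynoecium, 1329 CPM in stamens and 579 CPM in leaf. Of 23 tested genes of a list for epidermis and cuticle, 19 were called higher in gynoecium than leaf. In stamens 18 of the 23 were called higher and 5 lower, and CER4 and GPAT8 were members. Of all 20827 genes tested, 42.6% were called higher in gynoecium and 0.811% were members. In stamens 10419 of these 20827 genes were called higher and 37.9% lower. BDG1, which the list holds as BDG, was not paired by symbol and is not counted among the 23.

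**Figure D3:**
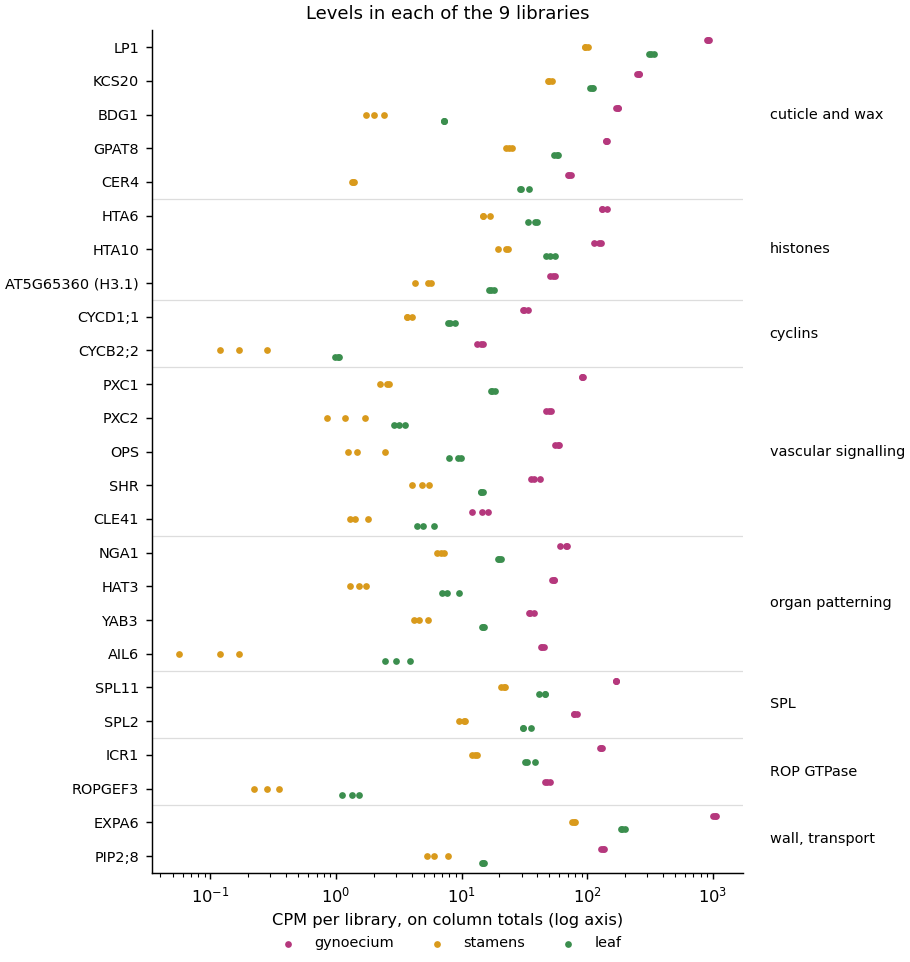
CPM on column totals (horizontal, log axis) in each of the 9 libraries for 25 members grouped by role, with 1 point per library. In each row the gynoecium points lie to the right and the stamen points to the left of the leaf points, with the widest gap between gynoecium and stamens in AIL6 and ROPGEF3 among the rows shown.

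Core histone genes, counted with all genes annotated to the histone superfamily, gave 7 members of 41 tested (17.1%), beside 169 of 20827 genes tested in all (0.811%). Of the 41, 32 were called higher in gynoecium and 27 lower in stamens, beside 42.6% and 37.9% of all genes tested. HTA6 (AT5G59870), an H2A gene of the H2A.W type, had 130.2, 142 and 131 CPM in gynoecium libraries, 16.9, 14.7 and 14.7 CPM in stamen libraries and 33.5, 39.5 and 38.5 CPM in leaf libraries. This was 3.62 times leaf in gynoecium and 0.416 of leaf in stamens. HTA10 (AT1G51060) and HTA13 (AT3G20670), which encode H2A, stood at 2.41 and 4.91 times leaf in gynoecium and at 0.432 and 0.479 of leaf in stamens. The H3.1 genes AT5G10390, AT5G65360 and AT1G09200 stood at 3.06, 3.097 and 4.23 times leaf in gynoecium and at 0.226, 0.297 and 0.497 of leaf in stamens. H3.1 is the H3 form deposited behind the replication fork. The annotation names 5 H3.1 genes, and the other 2 were above leaf in gynoecium too but over 0.5 of leaf in stamens. AT5G10400 stood at 6.93 times leaf in gynoecium and 0.740 of leaf in stamens, and AT3G27360 at 14.6 times leaf in gynoecium and 2.70 times leaf in stamens. The H4 gene AT3G46320 is 97.5% identical to AT3G45930 within their longest aligned transcript stretch, so the split of reads between them is uncertain. HTA6, HTA13, AT1G09200 and AT3G46320 met the rule under every scaling. On column totals, HTA13 left the rule without male replicate 2 or leaf replicate 2, at up to 0.547 of leaf in stamens, and AT1G09200 without male replicate 2 or 3 or leaf replicate 2, at up to 0.584.

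The histone genes are shown by promoter because 5 of the 7 share an 8-base element. The letters CGCGGATC, the octamer known from plant histone promoters, were searched on both strands from 250 bases before to 50 bases after each gene's annotated start. They were found in 5 of 168 member windows (2.98%), 33 of 20315 windows of genes tested (0.162%) and 40 of 27443 windows of protein-coding genes (0.146%). Of those 40 genes 9 were core histones, and 5 of the 9 were members. Among tested histone genes outside the members, 4 of 34 had the octamer, at stamen levels of 0.780, 1.03, 0.740 and 0.530 of leaf for AT1G07660, AT4G40040, AT5G10400 and AT5G59690. The 5 stretches below give the octamer or its reverse complement in capitals with up to 20 bases on each side, cut at the annotated start, from the RefSeq genome TAIR10.1.
AT1G09200, chr1:2972335-2972373 (minus strand): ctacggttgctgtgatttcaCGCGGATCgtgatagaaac
HTA10, chr1:18926781-18926810 (plus strand): atctaacggtgataaacagcGATCCGCGta
HTA13, chr3:7229302-7229349 (plus strand): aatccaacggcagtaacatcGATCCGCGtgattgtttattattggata
HTA6, chr5:24116309-24116356 (minus strand): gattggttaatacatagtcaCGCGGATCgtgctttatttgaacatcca
AT5G65360, chr5:26120680-26120727 (minus strand): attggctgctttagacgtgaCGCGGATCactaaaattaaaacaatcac
The copies lay 2 to 118 bases before the annotated start, and of the 2 copies in AT1G09200 and in HTA10 the nearer is shown. The octamer was searched after the levels had been seen. Of the motifs listed with the members' results known, the MYB3R-bound core CNAACGG was in 5 of the 7 histone windows and in 13 of 168 member windows (7.74%), against 6.04% of genes tested. The E2F letters TTTNNCGC were in 5 of the 7 and in 17 of 168 (10.1%), against 7.75% of genes tested.

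**Figure D4:**
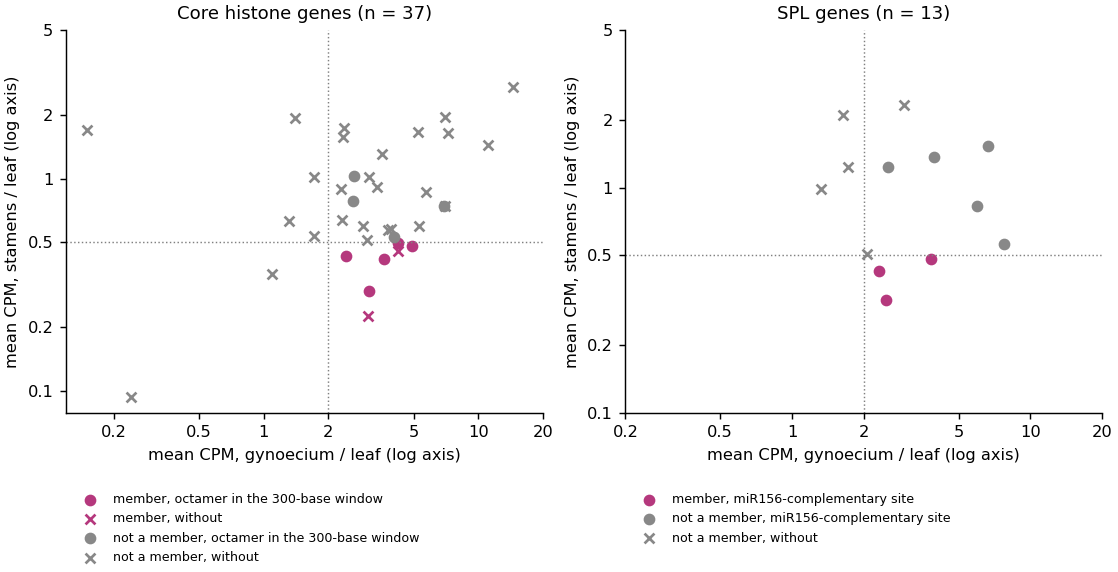
Ratio of mean CPM in gynoecium to leaf (horizontal, log axis) against stamens to leaf (vertical, log axis) for 37 core histone genes (left) and 13 SPL genes (right) with enough counts to plot, members in colour and other genes in grey. Circles carry the histone octamer (left) or a miR156-complementary site (right) and crosses do not. All 7 histone members and all 3 SPL members lie at the lower right by the rule, and other genes with the octamer or the site lie above 0.5 in stamens.

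Of 90 tested genes annotated as cyclins, 3 were members (3.33%), beside 0.811% of all genes tested. The mitotic cyclin gene CYCB2;2 (AT4G35620) had 14.1 ± 0.751 CPM in gynoecium, 0.189 ± 0.0836 CPM in stamens and 1.03 ± 0.0381 CPM in leaf (mean ± SD, n = 3 each), and it was the only member among 25 tested mitotic cyclins and kinases. Of those 25 genes 23 were called higher in gynoecium than in leaf and 21 higher in stamens than in leaf. Over all 20827 genes tested, 10419 were called higher in stamens. CYCD1;1 (AT1G70210) and CYCD4;2 (AT5G10440), cyclins that act at entry into the cycle, stood at 3.85 and 2.50 times leaf in gynoecium and at 0.458 and 0.281 of leaf in stamens. They were the 2 members among 37 tested genes of cell cycle control, of which 30 were called higher in gynoecium and 10 lower in stamens. Of the 3 cyclin members 2 met the rule under every scaling. The 5 marker genes of dividing cells, none of them a member, summed to 238 to 243 CPM in gynoecium, 43.5 to 45.3 CPM in stamens and 11.1 to 15.3 CPM in leaf, a sum that in stamens came mostly from the mitotic genes CYC1BAT and CDKB2;1. In stamens these 2 were called higher than leaf, HIK and PCNA1 were called lower, and SYP111 was called neither. None of 40 tested DNA replication genes was a member, and 31 of them were called higher in gynoecium and 14 lower in stamens. For this list and that of cell cycle control, the shares over all genes tested were 42.6% higher in gynoecium and 37.9% lower in stamens. With 0.811% of all genes tested being members, a list of this size can hold none.

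Genes that act in vascular tissue made up a further group of 9, also picked after the levels were seen and without a count of all vascular genes. PXC1 (AT2G36570), a receptor-like kinase tied to secondary wall formation in vascular fibres, had 90.6, 91.8 and 90.8 CPM in gynoecium libraries, 2.63, 2.25 and 2.54 CPM in stamen libraries and 17.5, 17.2 and 18.4 CPM in leaf libraries. It stood at 5.14 times leaf in gynoecium and 0.140 of leaf in stamens. PXC2 (AT5G01890), its relative, had 47.1, 49.6 and 51.3 CPM in gynoecium libraries, 1.17, 0.844 and 1.71 CPM in stamen libraries and 3.18, 3.55 and 2.91 CPM in leaf libraries. Its gynoecium level of 15.4 times leaf was the fifth highest ratio among members, though 20.8% of its exon bases lie in another gene model. PXC3 (AT2G41820) stood at 2.45 times leaf in gynoecium and 0.400 of leaf in stamens. PXY itself, the receptor that keeps cambium cells dividing, was not a member. Its means were 33.3 CPM in gynoecium, 6.08 CPM in stamens and 11.1 CPM in leaf, which put stamens at 0.548 of leaf. CLE41 (AT3G24770), which encodes a peptide ligand of PXY, had 16.2, 14.5 and 12.1 CPM in gynoecium libraries, 1.79, 1.29 and 1.42 CPM in stamen libraries and 4.92, 6.04 and 4.42 CPM in leaf libraries. CLE25 (AT3G28455) stood at 3.59 times leaf in gynoecium and 0.336 of leaf in stamens. With CLE16, 3 of 10 tested CLE peptide genes were members. CLE44, not a member, had means of 5.33 CPM in gynoecium, 0.823 CPM in stamens and 3.18 CPM in leaf. This was 1.68 times leaf in gynoecium, and CLE44 was not called higher there. OPS (AT3G09070) and SMXL4 (AT4G29920), both needed for phloem formation, stood at 6.38 and 6.43 times leaf in gynoecium and at 0.190 and 0.326 of leaf in stamens. The last 2 were the kinase gene RUL1 (AT5G05160), a regulator of cambium activity, and SHR (AT4G37650), the GRAS regulator that sets the ground tissue layers around the root vasculature. RUL1 stood at 2.31 times leaf in gynoecium and 0.249 of leaf in stamens, and SHR at 2.67 times leaf in gynoecium and 0.329 of leaf in stamens. PXC1, PXC2, OPS, SMXL4 and CLE25 met the rule under every scaling.

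Regulators of organ shape and polarity formed a group of 9, led in contrast by AIL6 (AT5G10510), an AINTEGUMENTA-like gene of floral organ growth. AIL6 had 44.0, 43.1 and 45.1 CPM in gynoecium libraries, 0.0559, 0.169 and 0.118 CPM in stamen libraries and 2.99, 2.44 and 3.89 CPM in leaf libraries. This was 14.2 times leaf in gynoecium and 0.0368 of leaf in stamens, with 14.7% of its exon bases shared with another gene model. HAT3 (AT3G60390), a homeodomain-leucine zipper regulator of the adaxial side, had 52.0, 53.9 and 54.5 CPM in gynoecium libraries, 1.73, 1.52 and 1.3005 CPM in stamen libraries and 9.54, 6.92 and 7.61 CPM in leaf libraries. The 3 tissues did not overlap, and HAT3 stood at 6.66 times leaf in gynoecium and 0.189 of leaf in stamens. NGA1 (AT2G46870), a regulator of style and stigma development, had 69.6, 61.0 and 67.3 CPM in gynoecium libraries, 6.82, 7.20 and 6.33 CPM in stamen libraries and 20.6, 19.8 and 19.3 CPM in leaf libraries. NGA2 (AT3G61970) stood at 2.69 times leaf in gynoecium and 0.359 of leaf in stamens. The remaining NGATHA genes, which act with these in the style, were not members. NGA3 had means of 45.6 CPM in gynoecium, 6.56 CPM in stamens and 1.23 CPM in leaf, and NGA4 had 7.35 CPM in gynoecium, 7.65 CPM in stamens and no count in leaf. NGA1 and NGA2 were the 2 members among 25 tested genes of gynoecium patterning. All 25 were called higher in gynoecium than in leaf, and in stamens 17 were called higher and 3 lower. Among all 20827 genes tested, 42.6% were called higher in gynoecium and 0.811% were members. In stamens 10419 of the 20827 were called higher and 37.9% lower. YAB3 (AT4G00180) and KAN3 (AT4G17695), which mark the abaxial side of lateral organs, stood at 2.40 and 2.21 times leaf in gynoecium and at 0.316 and 0.439 of leaf in stamens. HAT14 (AT5G06710), of the same protein class as HAT3, and OFP15 (AT2G36050), an OVATE family repressor, stood at 3.61 and 2.13 times leaf in gynoecium and at 0.262 and 0.230 of leaf in stamens. PTL (AT5G03680), a trihelix regulator of petal initiation, stood at 4.01 times leaf in gynoecium and 0.494 of leaf in stamens. NGA1, HAT3, AIL6 and PTL met the rule under every scaling. On column totals, KAN3 left the rule without female replicate 2, at 9.55 CPM in gynoecium, and PTL without male replicate 1 or 3 or leaf replicate 2 or 3, at up to 0.522 of leaf in stamens.

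A further 7 members encode other transcription regulators. PIL1 is described below with the genes without stamen counts. HSFB4 (AT1G46264), which sets ground tissue identity in the root, and the CCAAT-binding subunit gene NF-YA8 (AT1G17590) stood at 4.64 and 4.03 times leaf in gynoecium and at 0.219 and 0.445 of leaf in stamens. The GATA factor genes GATA15 (AT3G06740) and GATA17 (AT3G16870) stood at 2.25 and 3.14 times leaf in gynoecium and at 0.285 and 0.409 of leaf in stamens. The homeodomain gene AtHB23 (AT1G26960) and the bHLH gene bHLH071 (AT5G46690) stood at 3.16 and 2.204 times leaf in gynoecium and at 0.483 and 0.131 of leaf in stamens. AtHB23 left the rule without male replicate 2 or 3 or leaf replicate 2, at up to 0.540 of leaf. PIL1, GATA17, AtHB23, NF-YA8 and HSFB4 met it under every scaling.

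Of 14 tested SPL genes, which encode squamosa promoter-binding-like regulators of phase change and organ growth, 3 were members. SPL11 (AT1G27360) had 170.0, 169 and 168 CPM in gynoecium libraries, 22.1, 21.8 and 20.4 CPM in stamen libraries and 45.8, 41.3 and 45.9 CPM in leaf libraries. SPL2 (AT5G43270) had 78.7, 82.7 and 78.6 CPM in gynoecium libraries, 9.56, 10.4 and 10.7 CPM in stamen libraries and 35.4, 30.7 and 30.7 CPM in leaf libraries. SPL6 (AT1G69170) stood at 2.31 times leaf in gynoecium and 0.425 of leaf in stamens. All 9 libraries of each gene kept the order of gynoecium, leaf and stamens, and SPL11 alone met the rule under every scaling. Many SPL transcripts carry a site for the microRNA miR156, and the sites of these 3 members are shown because their 20 letters are the same. The genome letters of the mature microRNAs have the seed, bases 2 to 8, in capitals, and the sites have in capitals the letters that pair with it.
miR156a-5p, chr2:10676534-10676553 (minus strand): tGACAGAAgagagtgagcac
miR156j, chr2:17589066-17589085 (minus strand): tGACAGAAgagagagagcac
SPL11 site, chr1:9503618-9503637 (plus strand): gtgctctctctcTTCTGTCa
SPL6 site, chr1:26006731-26006750 (plus strand): gtgctctctctcTTCTGTCa
SPL2 site, chr5:17360758-17360777 (minus strand): gtgctctctctcTTCTGTCa
Each site lies in a coding exon. Counted from the 5′ end of the site, the site differs by A7T from the complement of miR156a-5p, whose base is given first, and is fully complementary to miR156j. Of the 14 SPL genes tested 8 had a miR156 site with at most 2 mismatches. The 5 with a site that were not members were SPL4, SPL5, SPL9, SPL10 and SPL13A, at 1.23, 1.37, 0.560, 0.832 and 1.54 of leaf in stamens and at 2.53 to 7.78 times leaf in gynoecium. The 6 without a site ran from 1.32 times leaf in gynoecium (SPL14) to 380.0 (SPL8, with 7 counts in leaf over 3 libraries), and from 0.507 of leaf in stamens (AT1G76580) to 50.8 times leaf (SPL8). Over all 168 protein-coding members, 6 (3.57%) had a site for some annotated microRNA with at most 2 mismatches, against 3.15% of genes tested.

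The microRNA gene among the members was MIR159b (AT1G18075), whose product belongs to the miR159 family that targets GAMYB-like MYB genes. Its precursor locus had 16.95, 18.7 and 17.7 CPM in gynoecium libraries, 0.447, 0 and 0.118 CPM in stamen libraries and 2.37, 2.32 and 3.60 CPM in leaf libraries. Stamen counts summed to 10 over 3 libraries. Reads at this locus stem from the precursor transcript, and the mature microRNA was not measured. The annotated mature letters of miR159b-3p share the seed, in capitals, with miR159a.
miR159b-3p, chr1:6220813-6220833 (plus strand): tTTGGATTgaagggagctctt
miR159a, chr1:27713234-27713254 (minus strand): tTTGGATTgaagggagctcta

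Genes around ROP GTPases, plant switch proteins that steer polar growth, included the exchange factors ROPGEF3, ROPGEF5 and ROPGEF14, 3 of 11 tested, and the ROP partner ICR1. ROPGEF3 (AT4G00460) had 50.4, 47.7 and 46.2 CPM in gynoecium libraries, 0.224, 0.281 and 0.355 CPM in stamen libraries and 1.12, 1.51 and 1.34 CPM in leaf libraries. Its 36.4 times leaf was the highest gynoecium ratio of all members, on low leaf counts and with 12.4% of its exon bases in another gene model. ROPGEF5 (AT5G05940) and ROPGEF14 (AT1G31650) stood at 9.16 and 2.47 times leaf in gynoecium and at 0.321 and 0.307 of leaf in stamens. ICR1 (AT1G17140), with 10.8% of its exon bases in another gene model, had 129 ± 1.66 CPM in gynoecium, 12.7 ± 0.631 CPM in stamens and 34.5 ± 3.20 CPM in leaf (mean ± SD, n = 3 each). Other exchange factors were counted in stamens and not in gynoecium: ROPGEF8, ROPGEF9 and ROPGEF11 had means of 22.9, 25.8 and 21.6 CPM in stamens. ROPGEF8 and ROPGEF9 had no count in leaf either, so they were not lower in gynoecium than in leaf. ROPGEF11, with a leaf mean of 2.32 CPM, had the opposite pattern to the members. ROPGEF3, ROPGEF5 and ICR1 met the rule under every scaling.

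A set of 9 members acts in the cytoskeleton or in vesicle traffic. IQD8 (AT1G72670) and IQD7 (AT1G17480), calmodulin-binding proteins of microtubules, stood at 21.8 and 3.40 times leaf in gynoecium and at 0.451 and 0.0969 of leaf in stamens, 2 of 30 tested IQ-domain genes. IQD8 left the rule without leaf replicate 3, with a leaf mean of 0.906 CPM. The formin gene AT3G07540, of a class that nucleates actin filaments, stood at 2.88 times leaf in gynoecium and 0.171 of leaf in stamens. The traffic GTPases RABA1b (AT1G16920) and RABA5b (AT3G07410) stood at 2.81 and 3.50 times leaf in gynoecium and at 0.419 and 0.474 of leaf in stamens. Of 18 RABA genes tested 2 were members, and 4 of the 9 genes met the rule under every scaling.

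Cell wall genes numbered 10 among the members. EXPA6 (AT2G28950), an expansin that loosens walls during growth, had 1038, 1060.1 and 1003 CPM in gynoecium libraries, 77.7, 75.3 and 79.4 CPM in stamen libraries and 189, 198 and 185 CPM in leaf libraries. Per length, its 650.1 FPKM in gynoecium in the authors' FPKM table was the highest among members after LP1. It was the only one of 11 tested A-type expansins among them. EXPA1, another expansin, had means of 91.0 CPM in gynoecium, 244 CPM in stamens and 229.6 CPM in leaf. TBL36 (AT3G54260), of the family that acetylates wall polymers, stood at 8.75 times leaf in gynoecium and 0.276 of leaf in stamens. The mannan synthase genes CSLA03 (AT1G23480) and CSLA11 (AT5G16190) stood at 2.203 and 3.28 times leaf in gynoecium and at 0.133 and 0.271 of leaf in stamens. XTH28 (AT1G14720), of the family that cuts and joins xyloglucan, stood at 3.24 times leaf in gynoecium and 0.383 of leaf in stamens. ATBFRUCT1 (AT3G13790), a cell wall invertase that splits sucrose, stood at 2.28 times leaf in gynoecium and 0.145 of leaf in stamens. The arabinogalactan protein gene AGP25 (AT5G18690) stood at 3.31 times leaf in gynoecium and 0.424 of leaf in stamens. The others were GATL3, of the galacturonosyltransferase-like family, PMR5, a wall gene of powdery mildew resistance, and AT5G62350, of the pectin methylesterase inhibitor family. PMR5 left the rule without male replicate 1 or 3 or leaf replicate 3, at up to 0.539 of leaf. Of the 10, EXPA6, XTH28, CSLA11, TBL36 and AGP25 met the rule under every scaling.

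Among transport genes, the aquaporin gene PIP2;8 (AT2G16850) had 135, 129 and 133 CPM in gynoecium libraries, 7.71, 5.29 and 6.03 CPM in stamen libraries and 14.8, 14.4 and 15.1 CPM in leaf libraries. SULTR3;1 (AT3G51895), a sulfate transporter, stood at 3.91 times leaf in gynoecium and 0.417 of leaf in stamens. KAT2 (AT4G18290), a potassium channel of guard cells and phloem, had 25.1, 24.2 and 25.7 CPM in gynoecium libraries, no count in stamens and 4.05, 2.96 and 3.95 CPM in leaf libraries. Hormone genes were LAX1 (AT5G01240), an auxin influx carrier, ENP (AT4G31820), which acts in auxin-dependent organ formation, GAMT2 (AT5G56300), which methylates gibberellins, and BAT1 (AT4G31910), an acyltransferase that lowers brassinosteroid activity. They stood at 2.83, 2.74, 4.35 and 6.23 times leaf in gynoecium and at 0.182, 0.464, 0.0642 and 0.210 of leaf in stamens. Of these 4 hormone genes 2 met the rule under every scaling, and LAX1 and ENP did not. Of 4 members grouped as transporters 3 met it. LAX1 was the only member among 24 tested genes of auxin synthesis, transport and response, of which 15 were called higher in gynoecium and 9 lower in stamens. Over all genes tested these shares were 42.6% and 37.9%.

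There were 8 members with no count in any stamen library: PIL1, KAT2, KCS16, AT2G37900, AT3G12970, AT5G62280, AT2G41800 and AT1G35830. PIL1 (AT2G46970), a bHLH gene induced by shade, had 38.4, 43.2 and 38.8 CPM in gynoecium libraries, none in stamens and 5.98, 4.65 and 5.41 CPM in leaf libraries. Against a floor of 3 counts per library, its leaf level was at least 31.2-fold above stamens and its gynoecium level at least 234-fold above. AT2G37900, a transporter of the major facilitator superfamily, had 56.8, 56.9 and 57.8 CPM in gynoecium libraries, none in stamens and 4.61, 3.89 and 4.59 CPM in leaf libraries. The same floor put its leaf level at least 25.5-fold and its gynoecium level at least 334-fold above stamens. AT3G12970 had 37.5, 33.3 and 34.6 CPM in gynoecium libraries and 0.873, 1.51 and 1.45 CPM in leaf libraries. MSRB9 (AT4G21850), which repairs oxidised methionine, had 1010 counts in gynoecium, 3 in stamens and 410 in leaf. Its leaf to stamen ratio was 142 (exact 95% interval 48.4 to 694, counting error only).

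Of the members with the highest gynoecium counts, several are known only by a domain. AT1G19835, a filament-like protein gene, had 780.4, 747 and 781 CPM in gynoecium libraries, 81.5, 84.0 and 81.5 CPM in stamen libraries and 322, 320.2 and 337 CPM in leaf libraries. The tissues did not overlap, and it left the rule with TMM factors. AT1G33470, an RNA-binding protein gene, and AT3G62630, annotated only by a conserved domain, stood at 2.79 and 2.91 times leaf in gynoecium and at 0.418 and 0.483 of leaf in stamens. AT1G62870, an uncharacterized gene, had 191, 187 and 196 CPM in gynoecium libraries, 5.31, 3.71 and 5.62 CPM in stamen libraries and 15.0, 17.8 and 17.7 CPM in leaf libraries. It stood at 11.4 times leaf in gynoecium and 0.290 of leaf in stamens. The receptor-like kinase gene MRLK (AT3G56100) and the leucine-rich repeat gene AT4G03010 stood at 13.3 and 14.4 times leaf in gynoecium and at 0.329 and 0.272 of leaf in stamens. ALDH3F1 (AT4G36250), an aldehyde dehydrogenase, had 314 ± 6.99 CPM in gynoecium, 34.8 ± 2.03 CPM in stamens and 76.0 ± 3.03 CPM in leaf (mean ± SD, n = 3 each). AT1G62870, MRLK, AT4G03010 and ALDH3F1 met the rule under every scaling.

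Metabolic enzymes were scattered among the members. ICS2 (AT1G18870), an isochorismate synthase, stood at 5.67 times leaf in gynoecium and 0.151 of leaf in stamens. CYP710A2 (AT2G34490), a sterol desaturase, and LUP1 (AT1G78970), which makes the triterpene lupeol, stood at 8.82 and 2.60 times leaf in gynoecium and at 0.315 and 0.377 of leaf in stamens. ARD3 (AT2G26400), an enzyme of methionine salvage, and PAL3 (AT5G04230), of phenylpropanoid synthesis, stood at 6.04 and 2.18 times leaf in gynoecium and at 0.0971 and 0.375 of leaf in stamens. NAI2 (AT3G15950), a protein of the endoplasmic reticulum bodies, stood at 6.29 times leaf in gynoecium and 0.256 of leaf in stamens. ICS2, CYP710A2, ARD3 and NAI2 met the rule under every scaling. In all, 76 members fell into the groups by role and 93 did not, the enzymes above among them. The 93 had a median of 3.13 times leaf in gynoecium and 0.366 of leaf in stamens, and 43 of them met the rule under every scaling.

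By median, members varied more between libraries of a tissue than genes that reach the rule's minimums, most of all in stamens. The median coefficient of variation over members was 4.49% in gynoecium, 13.3% in stamens and 8.44% in leaf. Over genes that reach the minimums it was 3.88% in gynoecium, 4.65% in stamens and 5.22% in leaf. In stamens the 90th percentile was 46.1% over the 161 members with a stamen count and 12.5% over the genes at the minimums. LCR69 (AT2G02100), a small cysteine-rich protein gene, had the widest spread in gynoecium, with 8.05, 8.35 and 16.6 CPM in its 3 libraries, 0.559, 0.225 and 0.768 CPM in stamen libraries and 0.810, 1.69 and 1.80 CPM in leaf libraries. It was also the 1 member not called lower in stamens, and without female replicate 3 its gynoecium mean lay under the minimum of 10 CPM.

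Of 19 lists of genes for growth, identity and metabolism, 7 held a member and 12 held none. The 12 without a member included the 20 tested photosystem genes, all 20 of which were called lower in gynoecium and in stamens, and the 20 tested glucosinolate genes, of which 19 were lower in gynoecium and 20 in stamens. They also included the 11 tested growth-regulating factors, all called higher in gynoecium and 7 of them higher in stamens, and the 18 tested ovule and integument genes, of which 14 were called higher in gynoecium and 6 lower in stamens. In the list for leaf and organ polarity, which held YAB3 and KAN3, 13 of 15 tested genes were called higher in gynoecium, and 7 were higher and 7 lower in stamens. For these lists, the counts over all 20827 genes tested were 10419 higher in stamens and 8323 lower in gynoecium. The shares over the same genes were 42.6% higher in gynoecium and 37.9% lower in stamens.

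In gene structure, 38 of 168 protein-coding members (22.6%) had a single exon block, against 15.1% of protein-coding genes tested and 9.82% of the 224 genes with the opposite pattern. The median member had 3 exon blocks and the median gene tested 4. Of the other promoter letters searched, TGGGCC (site II) was in 19 of 168 member windows (11.3%) against 18.4% of genes tested, AAACCCTA (telo box) in 3 (1.79%) against 6.14%, CACGTG (G box) in 14 (8.33%) against 8.66%, and TAAATGNA (L1 box, searched after the levels were seen) in 15 (8.93%) against 11.3%. Members lay on all 5 chromosomes, 42, 32, 31, 30 and 34 from chromosome 1 to 5, and RTFL17 and GATL3 were the only pair of neighbours among them. Exons of 35 members overlap another gene model, 14 of them over more than 10% of their bases. Of the genes named above these were RABA1b, RABA5b, ICR1, IQD8, CLE16, HTA13, ROPGEF3, PXC2, AIL6, LUP1 and AT1G35830, and the strand setting of the counting is not given in the sources used here. Besides AT3G46320, the glycosyltransferase gene AT4G27560 has a near copy, AT4G27570, at 96.0% identity within the longest aligned stretch.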

How the data were processed

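Bulk RNA sequencing of 3 gynoecium, 3 stamen and 3 leaf libraries of Col-0 gave the values used. The authors deposited a table of raw read counts per gene and a table of FPKM values per gene. Per the submitters' processing notes, HTSeq 0.6.0, TopHat2, HISAT2 2.1.0 and Bowtie2 2.2.3 were used with the genome TAIR10. The role of each tool, the annotation and the strand setting are not given in the sources used here. Every value column was paired with a sample, and 0 columns were left out.

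CPM was computed on column totals (16042169 to 18756860 counts), and the rule was applied to group means. Levels of different genes are compared per length only in the deposited FPKM. Marker sums and the choice of members by gynoecium mean used CPM, which is not scaled to gene length. A floor of 3 counts per library stands in for 0, and floors and intervals cover counting error only. Differences from leaf were fitted on 20827 genes with edgeR 4.0.16 (quasi-likelihood test, TMM factors, genes kept by filterByExpr, all 9 libraries, Benjamini-Hochberg adjustment over all genes tested, threshold 0.05) in R 4.3.3, a step tested on simulated data. DESeq2 1.42.0 factors, other scalings, thresholds, minimums and left-out libraries were tried as alternatives. Members and gene lists were chosen with earlier results of these data known, and the role groups, the families described, the octamer and the L1 box were chosen after the levels were seen. Of 459 entries in 19 lists, 448 were paired with a locus. Genes named beyond these are the 12 members with the highest gynoecium mean, the 12 with the highest gynoecium ratio, the 12 with the lowest stamen ratio, the genes next to each threshold and list members.

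Locus names, gene models and sequences were read from the RefSeq annotation and genome TAIR10.1 by locus identifier, which matched 32548 of 32833 loci. Near copies were searched with blastn 2.17.0+ (at least 95% identity over 100 bases), and microRNA sites in transcripts with at most 2 mismatches. Figures were drawn with matplotlib 3.10.9, and other steps ran in Python 3.11.15 with scipy 1.17.1, numpy 2.4.6 and pandas 2.3.3.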

Additional observations from a re-analysis of the deposited data

How the results depend on the processing

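The number of genes that met the rule was 169 as given, 468 with 1.5-fold thresholds and 50 with 3-fold thresholds, and 165 to 178 with 1 library left out. It was 190 and 115 with gynoecium minimums of 5 and 20 CPM. Tested against a 2-fold change in edgeR, a stricter null, 4930 genes were higher and 4898 lower in gynoecium than in leaf, 6505 were higher and 4425 lower in stamens than in leaf, and 69 members were higher in gynoecium and 163 lower in stamens. With 1 library left out, 8784 to 8995 genes were higher and 8187 to 8406 lower in gynoecium, 10380 to 10731 were higher and 7738 to 7838 lower in stamens, and 167 to 169 members were higher in gynoecium and 168 to 169 lower in stamens. The replicate numbers did not pair the libraries (9 pairs of equal number, correlations of deviations from -0.052 to 0.054). With the replicate block 8820 genes were higher and 8280 lower in gynoecium, 10365 were higher and 7839 lower in stamens, and 169 members were higher in gynoecium and 169 lower in stamens. The rule chose the members by their ratios to leaf, so an absence of sign changes carries no test. For the 100 named members, 0 of 2400 comparisons of a log2 ratio with an alternative changed sign. In 487 the ratio moved by more than the spread between libraries. All of these moves came from other scalings, 157 with TMM factors, 154 with DESeq2 size factors and 176 with upper quartile factors. Under those scalings only 43, 46 and 24 comparisons stayed within the spread. With any library left out, all 200 did. Stamen levels at or under 3 counts per library, such as that of MSRB9 with 3 counts over 3 libraries, are limited by depth.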
